A study of Mus musculus with 11 samples.

Results

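The Myc and Max network was described here through 10 genes: Myc and its paralogs Mycn and Mycl, their partner Max, the antagonists Mxd1, Mxd3, Mxd4, Mxi1, and Mnt, and the related factor Mlx. The genes were chosen by name as the core of the network, and all 10 were found among the 28284 genes of the count table. mRNA was sequenced from 11 OvTrpMyc cell lines grown out of the tissues of 7 mice, 1 library per line. Of these, 7 came from an ovary with its fallopian tube (ROV for the right and LOV for the left ovary), 2 from the mid-section of a uterus (F319 and F333), 1 from a tumor of the spleen (F326), and 1 from a tumor of the peritoneum (F361). Every line carries the genotype Ovgp1-Trp53-R270H-Myc on a C57BL/6 background and was untreated. In this knock-in, heterozygous in the mice, a fragment of the promoter of Ovgp1, an oviduct glycoprotein gene of the fallopian tube epithelium, drives 1 mRNA that holds the coding sequence of Trp53 with the R270H change, a P2A peptide, and the coding sequence of Myc with a 3x HA tag, placed in reverse orientation into the Trp53 locus. The lines were cultured outgrowths that were not described as single clones, the study genotyped them as having lost the wild-type Trp53 allele, no line without the transgene was analysed here, the methods name F361 as a line that did not express the mutant p53, and mice F318, F319, F326, and F364 each gave 2 lines, so lines are not all independent.

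Values are given as CPM, the count of a gene divided by the total count of its library and scaled to 1000000. The totals ranged from 13580525 to 27044598 counts with a median of 17517765, and the limit of detection was set at 3 counts, which is 0.111 to 0.221 CPM depending on the library. The libraries numbered S1 to S7 in the labels (F364 ROV, F326 splenic tumor, F364 LOV, F326 ROV, F361 peritoneal tumor, F319 ROV, and F318 ROV, in this order) stood apart from those numbered S8 to S11 (F339 ROV, F318 LOV, and the uterus lines of F319 and F333). A list of 30 skeletal muscle fiber genes took 7.55% to 14.4% of the counts in S1 to S7 and 0.157% to 1.26% in S8 to S11. In the same order of sets, the summed level of 4 Y-linked genes was 128 to 174 against 1.75 to 19.2 CPM, that of 6 fibroblast genes 87.2 to 11380 against 11075 to 19993 CPM, that of 3 endothelial genes 56.1 to 253 against 1.48 to 70.9 CPM, and that of 5 blood cell genes 4.82 to 9.999 against 1.02 to 5.77 CPM. The sum of 9 markers of ovarian and oviduct epithelium was low in both sets, at 3.29 to 237 and 9.998 to 43.4 CPM. Ovaries and uteri come from female mice, which carry no Y chromosome, so the Y-linked counts go against the labels of the ovary and uterus libraries, most of all in S1 to S7, and their source was not tested. In such bulk libraries, fewer cells of a type and less RNA per cell cannot be told apart. Both uterus libraries belong to S8 to S11, so values below are given by set, in the order above, and each test between sets compares these libraries, not an effect of Myc. On plain CPM, differences of S8 to S11 from S1 to S7 read 0.37 log2 units higher than with the TMM scaling used in the tests. Narrow orders and overlaps of lines across the sets therefore depend on the scale.

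Myc, Mycn, and Mycl are transcription factors that bind DNA only as dimers with Max. The dimers recognize the E-box CACGTG and raise transcription of genes for growth, ribosomes, and nucleotide synthesis, while Mxd1, Mxd3, Mxd4, Mxi1, and Mnt compete for Max and for the same sites and recruit Sin3 corepressors and histone deacetylases. Mlx is a Max-like protein that pairs with Mlxip and Mlxipl, which respond to glucose, and with some of the Mxd proteins. MYC gain is among the commonest amplifications of high-grade serous ovarian cancer, and the network in these cells bears on whether a Myc transgene is met by changes in partners and antagonists.

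Of the members, 4 carry the E-box in their own promoter, and these sequences are shown because they are where network dimers could in principle bind network genes. RefSeq windows of GRCm38.p6 that reach from 250 bases before to 50 bases after each start were searched for CACGTG, which reads the same on both strands. The table held 11 windows for 9 of the members, and none for Myc. The motif was found in 4 of the 9 genes, against 7.15% of all 32851 windows and 8.09% of all 27025 genes. Each match is printed 5′ to 3′ on the strand of its gene with 12 bases on either side and the motif in capitals. The motif starts 3 bases before the start of Max, 40 before that of Mlx, 123 before that of Mnt, and 219 before that of Mxd4.
Max, chr12:76962234-76962263, minus strand: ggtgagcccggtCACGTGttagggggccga
Mlx, chr11:101087238-101087267, plus strand: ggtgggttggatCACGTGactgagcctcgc
Mnt, chr11:74830789-74830818, plus strand: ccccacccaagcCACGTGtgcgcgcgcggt
Mxd4, chr5:34187912-34187941, minus strand: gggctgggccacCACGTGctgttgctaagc
A match is a description of letters and neither a binding site nor a cause, and the windows of Mycn, Mycl, Mxd1, Mxd3, and Mxi1 say only that these letters are not in them.

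Myc lies on chromosome 15 of GRCm38 from 61985391 to 61990374 on the plus strand. In S1 to S7 it was at 53.3, 22.2, 50.2, 31.8, 6.92, 55.3, and 93.6 CPM, and in S8 to S11 at 184, 280.1, 291, and 153 CPM. The lowest line was F361, with 94 counts (95% Wilson interval 5.66 to 8.47 CPM), and the highest the F319 uterus line, with 7857 counts (284 to 297 CPM). These intervals cover counting error only. The sets did not overlap, and Myc averaged 44.8 ± 28.01 CPM (SD, n = 7) in S1 to S7 and 227 ± 68.7 CPM (SD, n = 4) in S8 to S11. Within S1 to S7, F318 ROV was the highest line in Myc, with the lowest muscle share, 7.55%, and F361 the lowest, with the highest share, 14.4%. The lines between them did not keep this order, as F326 splenic tumor had the next lowest share, 11.5%, and the next lowest Myc.

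**Figure D1:**
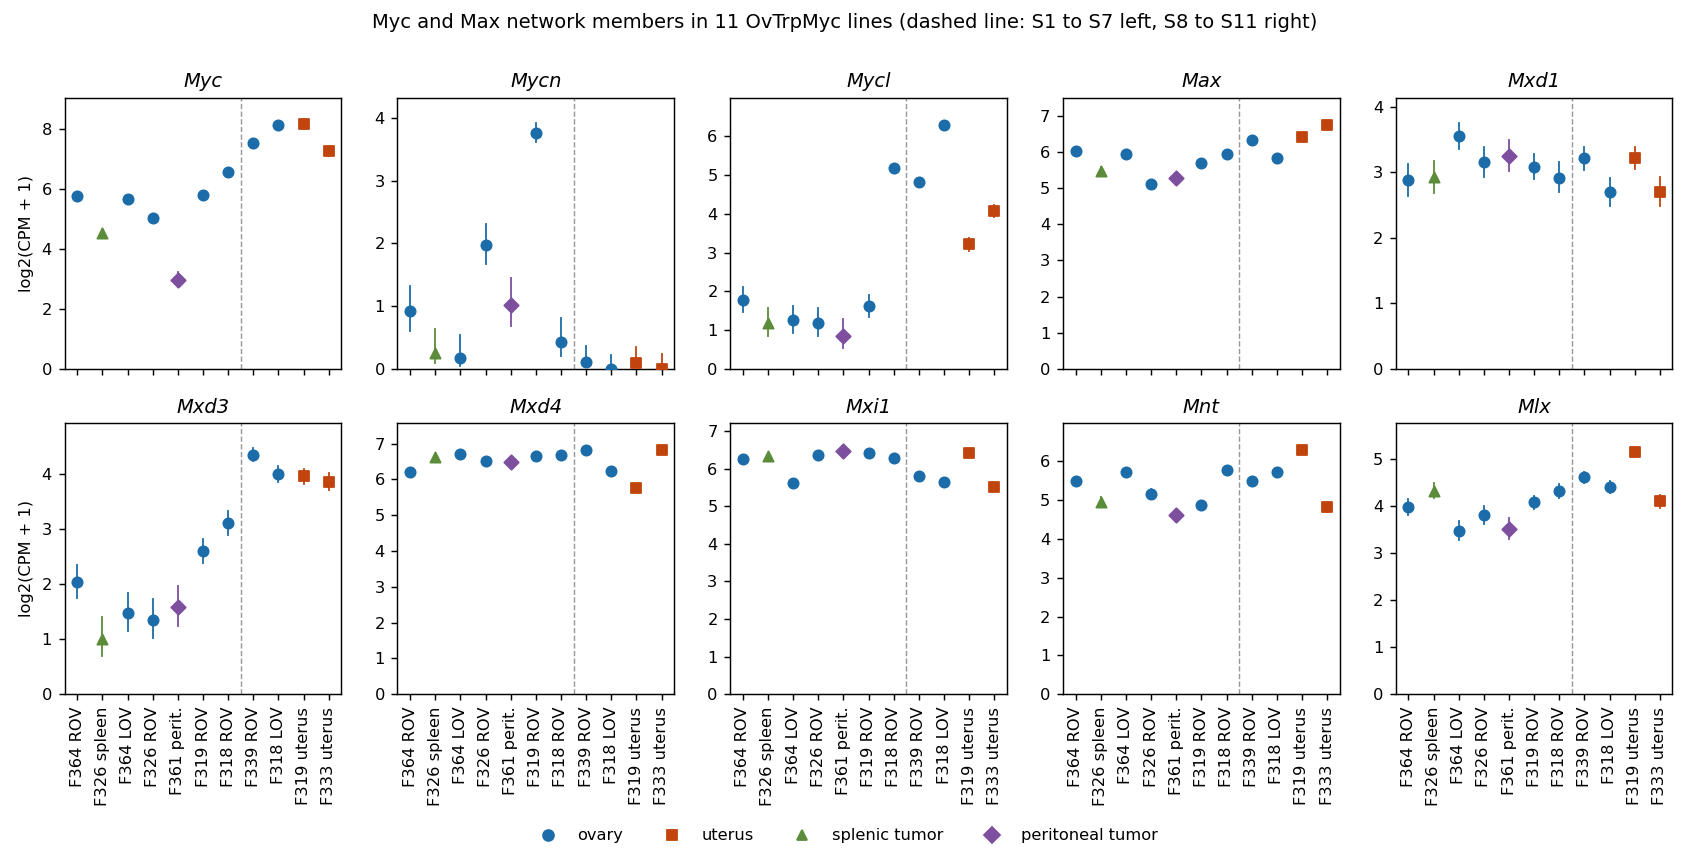
Level of each of the 10 members, as log2(CPM + 1), in the 11 OvTrpMyc lines in the order of their library numbers, with 1 point per library, 95% Wilson intervals as bars, and the tissue of origin as color and shape. Myc and Mxd3 lie higher in all libraries right of the dashed line (S8 to S11) than in any left of it, Mycn stands out in F319 ROV at 12.6 CPM, and Mycl in F318 ROV and in S8 to S11.

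Reads of the transgene mRNA count on Myc as well as on Trp53, because it holds both coding sequences, and the counts do not separate them from reads of the native genes. How many Trp53 counts are native in lines genotyped without the wild-type allele was not measured here. Trp53, the tumor suppressor gene, was at 14.6, 16.1, 10.4, 19.5, 15.9, 23.1, and 25.7 CPM in S1 to S7 and at 29.3, 33.9, 52.0, and 24.0 CPM in S8 to S11. If every Trp53 count came from the transgene and coverage were even, the transgene would give at most 1.16 counts on Myc for each count on Trp53, the ratio of the lengths of the 2 coding sequences. That limit amounted to 18.5%, 14.1%, 20.8%, and 18.3% of the Myc counts in S8 to S11, and Myc exceeded it by 125 to 241 CPM there. It amounted to 31.8%, 84.2%, 24.1%, 71.3%, 48.6%, and 32.01% in the lines of S1 to S7 other than F361. In F361 the limit, 18.5 CPM, was above the measured Myc level of 6.92 CPM, so all Myc counts of that line lay within it. Since F361 is named as a line that did not express the mutant p53, its Trp53 counts need not come from the transgene, and the limit gives no estimate of transgene reads for this line. With lengths of the whole merged exons in place of the coding sequences, the share was 8.12% to 12.03% in S8 to S11, 13.9% to 48.6% in the lines of S1 to S7 other than F361, and 154% in F361. These lengths take in untranslated exons that the described construct does not hold, so this lower share is no upper limit. Myc lies toward the 3′ end of the transgene mRNA, and coverage that rises toward this end would raise the limit. Coverage along the gene was not measured here.

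**Figure D2:**
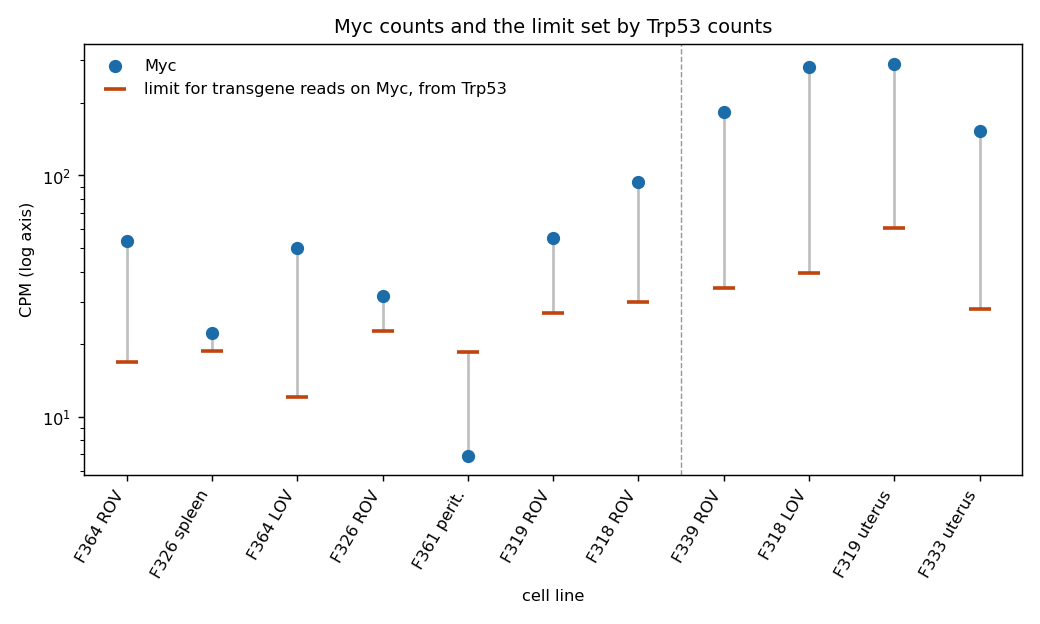
Measured Myc level (points) and the limit that Trp53 counts set on transgene reads counted on Myc (bars), in CPM on a log axis, for the 11 lines. The limit lies below the measured level in every line but F361, where it is 18.5 against 6.92 CPM and where the mutant p53 was named as not expressed, and the gap is widest on the log axis in F318 LOV.

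Pvt1, a non-coding RNA gene that follows Myc on chromosome 15 from 62037986 to 62378096, is not part of the construct. It was at 3.80, 2.59, 4.43, 2.003, 0.884, 3.22, and 5.08 CPM in S1 to S7 and at 18.3, 35.3, 20.4, and 15.3 CPM in S8 to S11. Like Myc, it was lowest in F361 and did not overlap between the sets. Ovgp1, whose promoter drives the transgene, was at 1.002 to 6.52 CPM with a median of 2.51 CPM in S1 to S7 and at 1.45, 0.829, 1.07, and 1.35 CPM in S8 to S11. The Ovgp1 level was thus low in both sets, and it was not higher where Myc was high.

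Mycn, the paralog of neuronal and embryonic tissues, lies on chromosome 12 from 12936093 to 12941914. It was at 0.888, 0.190, 0.127, 2.94, 1.03, 12.6, and 0.343 CPM in S1 to S7. In S8 to S11 it had 2, 0, 2, and 0 counts, at or below the 3 counts taken as the limit of detection in each library. F319 ROV, with 281 counts (11.2 to 14.1 CPM), had more than any other line, and the uterus line of the same mouse had 2 counts. F364 LOV, with 2 counts, and F326 splenic tumor, with 3, were also at or below the limit, so the sets could not be told apart through these lines.

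Mycl, the paralog first found in lung cancer, lies on chromosome 4 from 122995652 to 123002485. It was at 2.41, 1.27, 1.39, 1.27, 0.810, 2.06, and 35.2 CPM in S1 to S7 and at 27.4, 76.7, 8.28, and 15.8 CPM in S8 to S11. The lines from the ovaries of mouse F318 were the highest lines, with 616 counts on the right and 1757 on the left. F318 ROV was above 3 of the 4 libraries S8 to S11, so the sets overlapped through this line, and the 6 others of S1 to S7 were all below every library of S8 to S11.

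Max, the obligate partner of the family, lies on chromosome 12 from 76937269 to 76962201. It was at 33.3 to 64.1 CPM with a median of 51.0 CPM in S1 to S7 and at 78.5, 55.6, 84.0, and 106 CPM in S8 to S11. On plain CPM both uterus lines were above every other line, and F318 LOV, one of the lines with the most Myc, lay within the range of S1 to S7. With TMM scaling the F319 uterus line lies below both lines of F364.

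Among the antagonists, Mxd3, which is known from cells in S phase, differed most between lines. It was at 3.11, 1.01, 1.77, 1.54, 1.99, 5.06, and 7.65 CPM in S1 to S7 and at 19.4, 15.0, 14.5, and 13.5 CPM in S8 to S11, with no overlap. The line highest in Mxd3 within S1 to S7 was F318 ROV, which was also highest in Myc there. Mxi1, the antagonist also called Mxd2, was at 75.5, 80.1, 48.3, 81.1, 87.8, 85.0, and 76.9 CPM in S1 to S7 and at 55.1, 49.1, 84.6, and 44.5 CPM in S8 to S11. Its sets overlapped, because F364 LOV was as low as most of S8 to S11 and the F319 uterus line was as high as most of S1 to S7.

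Of the other antagonists, Mxd1, which is known to rise as cells differentiate, was at 6.34 to 10.8 CPM with a median of 7.48 CPM in S1 to S7 and at 8.27, 5.50, 8.32, and 5.52 CPM in S8 to S11. Mxd4 was at 72.3 to 104 CPM with a median of 97.97 CPM in S1 to S7 and at 112, 74.0, 53.3, and 111 CPM in S8 to S11. Both overlapped widely, and the F319 uterus line was the lowest of all lines in Mxd4. Mnt, the most widely expressed antagonist, was at 23.4 to 53.4 CPM with a median of 34.5 CPM in S1 to S7 and at 44.3, 52.2, 76.6, and 27.1 CPM in S8 to S11. On plain CPM F361 was lowest and the F319 uterus line highest in Mnt, as in Myc, while with TMM scaling the F333 uterus line was lowest in Mnt. Mlx was at 10.2 to 19.2 CPM with a median of 14.8 CPM in S1 to S7 and at 23.5, 20.3, 34.6, and 16.2 CPM in S8 to S11, where only the F333 uterus line lay within the range of S1 to S7. With TMM scaling, F339 ROV and F318 LOV also lay within the range of S1 to S7.

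To compare members with each other, CPM was divided by the merged exon length of the gene in kilobases (GENCODE M21). On this per-length scale the median level over the 11 lines was 20.4 for Myc, 16.7 for Max, 11.5 for Mxd4, 11.3 for Mxi1, 9.42 for Mnt, 8.13 for Mlx, 2.14 for Mxd3, 1.06 for Mxd1, 0.597 for Mycl, and 0.0576 CPM per kb for Mycn. The ranges of every 2 neighbours in this order overlapped. In fold terms Myc had the widest range after its paralogs, from 2.55 CPM per kb in F361 to 107 CPM per kb in the F319 uterus line, and it ranked first of the members in 8 lines. Max ranked first in 1 line and Mxi1 in 2.

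The balance of the family and its antagonists was read as the sum of Myc, Mycn, and Mycl over the sum of Mxd1, Mxd3, Mxd4, Mxi1, and Mnt, on the per-length scale, which does not depend on how libraries are scaled against each other. This ratio was 0.657, 0.275, 0.574, 0.406, 0.100, 0.735, and 1.11 in S1 to S7 and 1.85, 3.56, 2.56, and 1.89 in S8 to S11. The family was thus below its antagonists in 6 of the 7 libraries S1 to S7 and above them in F318 ROV and in all of S8 to S11. The antagonists together varied little, from 30.5 to 42.6 CPM per kb, while the family sum ran from 3.06 to 122 CPM per kb. Myc made up 79.6% to 98.1% of the family sum, with its lowest share in F318 ROV, where Mycl gave most of the rest, and its next lowest, 82.5%, in F319 ROV, the line with Mycn. Against Max alone, the family ratio ran from 0.293 in F361 to 7.89 in F318 LOV. The sums count mRNA and say nothing of protein, of which Myc is short-lived.

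**Figure D3:**
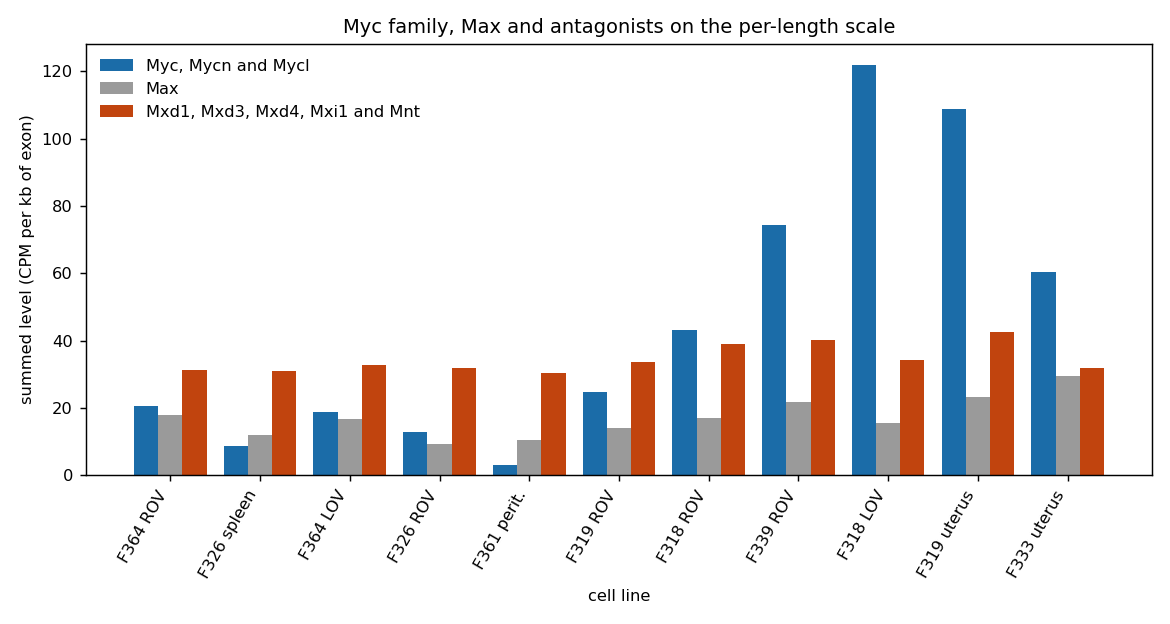
Summed level, in CPM per kb of merged exon, of the family (Myc, Mycn, Mycl), of Max, and of the antagonists (Mxd1, Mxd3, Mxd4, Mxi1, Mnt) in each of the 11 lines, in the order of their library numbers. The antagonist bars stay between 30.5 and 42.6 CPM per kb, while the family bar runs from 3.06 in F361 to 122 in F318 LOV.

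Lines of the same mouse were set side by side, leaving out Mycn for its low counts. Over the other 9 members the median fold, in either direction, was 1.21 between the lines of F326 and 1.46 between the ovaries of F364, both within S1 to S7, and 1.37 between the ovaries of F318 and 2.16 between the lines of F319, which span the sets. On plain CPM the median of F318 was thus below that of F364, by a margin that the choice of library scaling can turn. The largest fold of a single member was 1.52 in F326, 1.75 in F364, 2.99 in F318, and 5.25 in F319. From F318 ROV to F318 LOV, Myc was 2.99 times as high and Mycl 2.18 times, Mxd3 was 1.96 times as high, and Mxi1 was at 0.639 of its level. From F319 ROV to the F319 uterus line, Myc was 5.25 times as high, Mycl 4.02 times, Mxd3 2.87 times, and Mnt 2.71 times, while Mxd4 was at 0.532 and Mxi1 at 0.996 of its level. On plain CPM, Myc, Mycl, Mxd3, and Mlx were higher in both pairs, Mlx by 1.07 and 2.16 times, and Mxd4 and Mxi1 were lower, Mxi1 by little in F319. With TMM scaling, Mlx was slightly lower in F318 LOV than in F318 ROV. Mxi1 was then more clearly lower in the F319 uterus line than in F319 ROV. Each pair is 1 line against 1 line, so no test was made.

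The sets S8 to S11 and S1 to S7 were compared with edgeR's quasi-likelihood test over all genes, with Benjamini-Hochberg adjusted p under 0.05 as the threshold. Of the 10 members, Myc and Mxd3 were higher in S8 to S11 and Mxi1 was lower, while 6 did not pass. Mycn was also called lower, but it entered the test only through S1 to S7, so its direction followed from the filter. With Mycn the count is 4 of 10, against 58.5% of the 15954 genes tested, of which 28.6% were higher and 29.9% lower. With or without Mycn, the members passed no more often than genes at large. By sign alone 4 of the 10, Mycn among them, were lower, against 49.3% of genes. Myc was higher by a log2 fold change of 2.01 (SE 0.45, adjusted p = 0.00264), and Mxd3 by 1.99 (SE 0.43, adjusted p = 0.0020). The split was chosen with the Myc levels of the sets known, so the p of Myc describes the split and is no independent test. Mxi1 was lower, with a log2 fold change of -0.77 (SE 0.21, adjusted p = 0.0082). Mycn was lower (adjusted p = 0.0055), but it passed the filter on low counts only through 4 lines of S1 to S7, and with at most 2 counts in each library S8 to S11 its fitted fold is no bound. Without F364 ROV, F326 ROV, F361, or F319 ROV it fell below the filter and had no value, and among ovary lines only its adjusted p was 0.0564. The CPM ranges of the sets did not overlap for Myc and Mxd3, 2 of 10 members that were higher, against 26.1% of genes, and no member measured above the limit of detection was lower without overlap, against 17.1% of genes (43.1% in either direction). Mycn was not counted, since 2 counts in F364 LOV stood against 2 each in F339 ROV and the F319 uterus line. Between these sets the muscle, Y-linked, fibroblast, and endothelial markers differ as given above, and their part in these results was not tested.

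Mice F318 and F319 each gave a line to both sets, so the sets were also compared within mice, with the mouse as a fixed block in edgeR and 3 residual degrees of freedom. This fit, which was added after the data were seen, reads the difference from these 2 pairs, and it called 3028 genes (19%), 5.45% higher and 13.5% lower. Myc was higher by 1.76 (adjusted p = 0.0165), again for a split chosen with its levels known. Mxd3 was at 1.02 (adjusted p = 0.172) and Mxi1 at -0.55 (adjusted p = 0.252), so both calls were lost. Mycn had an adjusted p of 0.0453, but it entered the fit only through lines of S1 to S7 and was at or below the limit of detection in S8 to S11, so this is not read as a difference within mice.

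Mycl had the largest log2 fold change among members that did not pass, 2.13 (SE 0.98, adjusted p = 0.0796), and the lines of F318 moved it most. Without F318 ROV the log2 fold change was 3.97 with an adjusted p of 0.000179, and without F318 LOV it was 1.26 with an adjusted p of 0.323. With all 11 lines it was called by DESeq2 (adjusted p = 0.0338) and by limma-voom with the mouse as a random block (adjusted p = 0.0107), so that 3 of 18 alternatives passed. For Max the log2 fold change was 0.34 (adjusted p = 0.225), for Mlx 0.32 (0.255), for Mnt 0.02 (0.962), for Mxd1 -0.56 (0.0844), and for Mxd4 -0.45 (0.113). Without the F333 uterus line Mxd4 passed, at -0.64 (adjusted p = 0.0422), and for Mnt the sign changed with the scaling, to -0.02. Beside these values stands a shift of scale: on plain CPM, log2 differences between S8 to S11 and S1 to S7 are 0.37 higher than on the TMM scale of the test, because the TMM factors were on average smaller in S1 to S7, at 0.830 to 1.08, than in S8 to S11, at 1.07 to 1.23. The ratio of mean CPM was 5.07 for Myc, 4.93 for Mxd3, 0.764 for Mxi1, 1.62 for Max, and 1.32 for Mnt, and each of the 10 members had the same sign on both scales. In the same test Pvt1 was higher by 2.47 (SE 0.38, adjusted p = 0.000282) and Ovgp1 lower, with a log2 fold change of -1.77 (adjusted p = 0.0138). The call of Ovgp1 was lost among ovary lines only (adjusted p = 0.0829) and with the mouse as a fixed block (adjusted p = 0.185). Trp53 was higher by 0.60 (adjusted p = 0.0428), a call that was lost in 8 of the 11 fits without 1 line, where the adjusted p reached 0.174 without the F319 uterus line, and with the mouse as a fixed block (adjusted p = 0.294).

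**Figure D4:**
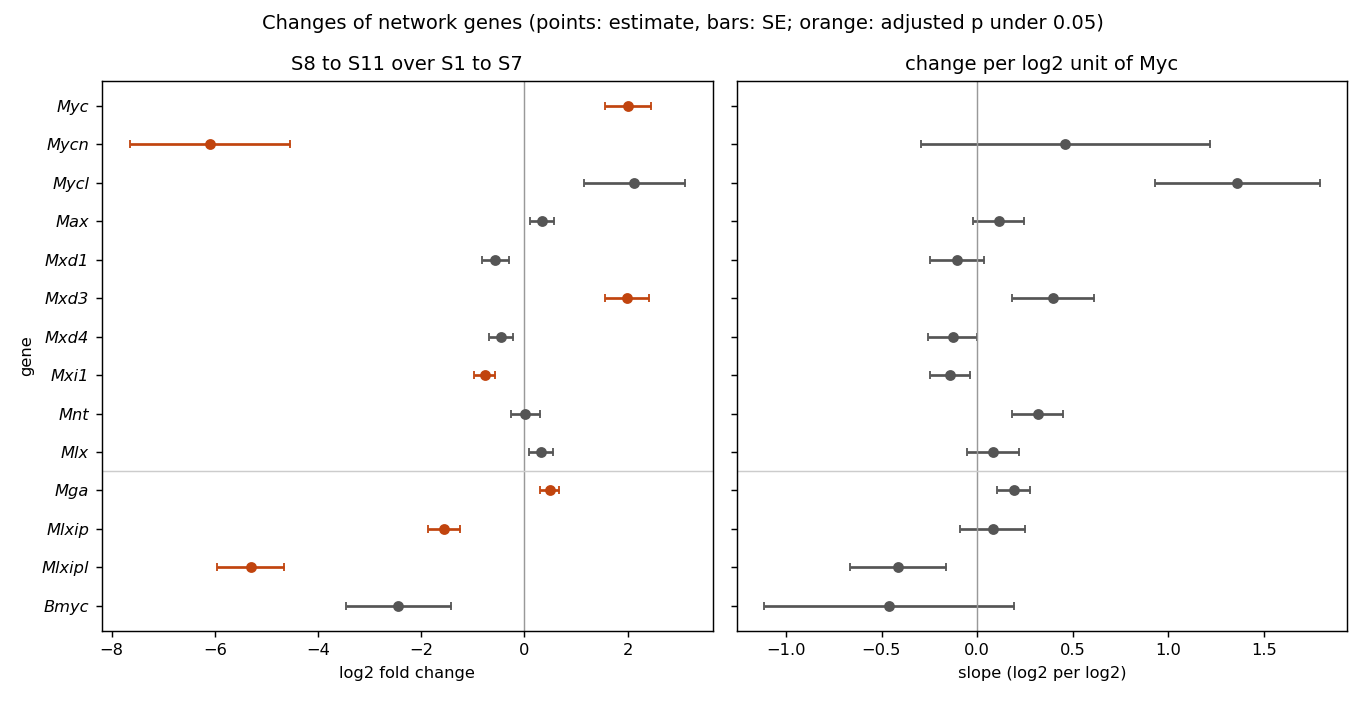
Left, log2 fold change of S8 to S11 over S1 to S7 for the 10 members and 4 related genes, and right, the slope of each gene on log2 Myc with the set as a term, both from edgeR with SE, derived from the F statistic, as bars. In orange are genes with an adjusted p under 0.05, Myc, Mycn, Mxd3, Mxi1, Mga, Mlxip, and Mlxipl on the left and none on the right. Mycn passed the filter only through S1 to S7 and was at or below the limit of detection in S8 to S11, so its fold is no bound.

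Uterus lines were compared with ovary lines to ask whether the network differs by organ. No member passed, and neither did any gene. In edgeR 0 of 17446 genes (0%) passed, although 2309 reached an unadjusted p under 0.05, and DESeq2 called 1315. The Myc level of the ovary lines ran from 31.8 to 280.1 CPM with a median of 55.3 CPM, against 153 and 291 CPM in those from a uterus. The members' log2 fold changes ran from -0.76 for Mycl to 0.96 for Myc, leaving out Mycn, which had 2 and 0 counts in the uterus lines and whose fitted fold is no bound. The adjusted p of the 10 was 0.359 or more, and 5 were above 0 and 5 below, where 51.7% of all genes were below. On plain CPM, Max alone had no overlap between organs, at 84.0 and 106 CPM against 33.3 to 78.5 CPM (log2 fold change 0.56, SE 0.30, adjusted p = 0.365), where 8.04% of genes had none. With the TMM scaling of the set comparison, the F319 uterus line lies below both lines of F364 in Max, so the ranges overlap. With the library set as a term the difference in Myc was -0.03, and within S8 to S11 it was -0.08.

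Whether paralogs and antagonists are lower where Myc is higher was tested as the slope of each gene on log2 Myc with the library set as a term. None of the 9 other members passed in edgeR, where 332 of 15953 genes (2.08%) did, 1.84% above 0 and 0.244% below, and of the members only Mycl and Mnt had an unadjusted p under 0.05. Of these slopes, 6 were above 0 and 3 below, while 49.1% of all genes were below 0. Mycl had a slope of 1.36 log2 units per log2 unit of Myc (SE 0.43, adjusted p = 0.125, unadjusted p = 0.0091), Mxd3 of 0.40 (SE 0.21, adjusted p = 0.344), and Mnt of 0.32 (SE 0.13, adjusted p = 0.225, unadjusted p = 0.0371). For Mycn the slope was 0.46 (SE 0.76), for Max 0.11 (SE 0.13), and for Mlx 0.08 (SE 0.13). The slopes below 0 were small, -0.11 (SE 0.14) for Mxd1, -0.13 (SE 0.13) for Mxd4, and -0.14 (SE 0.11) for Mxi1. No paralog or antagonist was thus shown to move against Myc within the sets, and with these SE a slope of either sign remains possible for most members. DESeq2 called Mycl (1.29, adjusted p = 0.0403), and without F318 ROV the slope was 0.49 (adjusted p = 0.579). Over 19 alternatives its adjusted p ran from 0.0047 to 0.971, the highest with the mouse as a fixed block beside the set, a fit with 2 residual degrees of freedom in which 0 genes passed and 727 reached an unadjusted p under 0.05. Within S1 to S7 alone 1.11% of 13108 genes passed, 1.09% above 0 and 0.0229% below, and again none of the members tested was among them (Mycn fell below the filter there), with a Mycl slope of 1.39 (adjusted p = 0.126).

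Without the set as a term, the slope takes in the difference between the sets, and 7966 genes (49.9%) passed, 25.9% above 0 and 24.0% below. There Mycl (1.29, adjusted p = 0.0047) and Mxd3 (0.70, adjusted p = 0.0043) were higher and Mxi1 (-0.26, adjusted p = 0.0119) lower with more Myc, and the slope of Mycn was -2.02 (adjusted p = 0.132). Myc is lowest by far in F361, and with the set as a term, where 332 genes passed, the number was 0 without this line. The fit without the set term was not repeated without F361. Pvt1, the neighbour of Myc, had a slope of 0.67 (SE 0.16, adjusted p = 0.0543) within sets, and over 19 alternatives its adjusted p ran from 0.000159 to 0.971. The slope of Trp53, which shares the transgene with Myc, was 0.06 (SE 0.13, adjusted p = 0.832), and that of Ovgp1 0.04 (SE 0.35, adjusted p = 0.967).

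As a description, members were also ranked by the correlation with Myc of log2(CPM + 1), after the mean of each set was subtracted, over 11 lines, some of which share a mouse. Mnt had an r of 0.716, Mycl of 0.555, Max of 0.452, Mlx of 0.444, Mxi1 of -0.125, and Mxd4 of -0.150. Mycn, Mxd1, and Mxd3 were below the mean of 10 CPM set for this ranking. Among the 10044 genes at or above it, the highest were Ncapg (0.979), a condensin subunit of mitotic chromosomes, Ywhaz (0.976), a 14-3-3 protein, and Rad18 (0.975), a ubiquitin ligase of DNA damage tolerance. The lowest were Gm2962 (-0.933) and the respiratory complex I genes Ndufs4 (-0.929) and Ndufa13 (-0.924). These correlations are given with no p, and the test of the slope above stands for the members.

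Of the related network genes, the table held Mga, Mlxip, Mlxipl, and Bmyc. Mlxipl (ChREBP), a partner of Mlx that responds to glucose, was at 28.7 to 106 CPM with a median of 67.2 CPM in S1 to S7 and at 2.71, 0.436, 1.55, and 3.44 CPM in S8 to S11, with no overlap (log2 fold change -5.31, SE 0.65, adjusted p = 8.75e-05). Mlxip (MondoA), the other partner, was at 68.1 to 212 CPM with a median of 108 CPM against 52.9, 56.3, 46.4, and 56.4 CPM (log2 fold change -1.56, SE 0.31, adjusted p = 0.0013). Both partners of Mlx were thus lower in S8 to S11 while Mlx itself did not pass. Mga, a Max partner of a repressive Polycomb complex, was at 40.3 to 82.9 CPM against 93.9, 133, 95.3, and 73.8 CPM (log2 fold change 0.49, SE 0.18, adjusted p = 0.0357), a call lost in 6 of the 11 fits without 1 line, with an adjusted p of up to 0.145 without F318 LOV. Bmyc, a short relative of Myc, was at 1.14 to 6.21 CPM against 2.20, 0, 0.259, and 0.0464 CPM. Its log2 fold change was -2.44 (adjusted p = 0.0553). The call depended on F339 ROV, without which it passed (adjusted p = 0.0018), but the other libraries of S8 to S11 had 0, 7, and 1 counts, of which 2 are under the limit of detection, so the fitted fold there is no bound. With the mouse as a fixed block, Mlxipl passed (adjusted p = 0.0049), and Mlxip (0.0872) and Mga (0.311) did not. Bmyc had an adjusted p of 0.0393 there, but with 0 counts in F318 LOV this is not read as a difference within mice.

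Genes around the network were read from lists drawn from general knowledge of it. Of the 15 corepressors and coactivators, 7 were higher, 1 was lower, and 7 did not pass in S8 to S11 against S1 to S7, with a median log2 fold change of 0.65 where the median of all genes was 0.03. Those 8 of 15 called stand against 58.5% of all genes, of which 28.6% were higher and 29.9% lower. Hdac1 and Hdac2, histone deacetylases of the Sin3 complex, were higher by 1.76 and 1.07 (adjusted p = 0.000219 and 0.000202), and Ep400, a chromatin remodeler, by 0.96 (adjusted p = 0.0043). Hdac1 ran from 7.29 to 25.5 CPM in S1 to S7 and from 42.1 to 74.7 CPM in S8 to S11. Zbtb17 (Miz-1), through which Myc represses genes, was the one that was lower, with a log2 fold change of -1.70 (adjusted p = 0.000149) and 67.2 to 112 against 25.1 to 60.1 CPM. With the mouse as a fixed block Hdac1 and Zbtb17 alone of this list passed (adjusted p = 0.0400 and 0.0274), against 19% of all genes, while Hdac2 had an adjusted p of 0.0761 and Ep400 of 0.187. Over all alternatives the lowest log2 fold change was 0.879 for Hdac2 and 0.606 for Ep400.

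Of the 12 regulators of Myc protein stability, 5 were higher, 4 were lower, and 3 did not pass, with a median of 0.23, against 28.6% higher and 29.9% lower of all genes. Cip2a, an inhibitor of the phosphatase that destabilizes Myc, listed under its older symbol C330027C09Rik, was at 1.77 to 33.6 CPM in S1 to S7 and at 82.0 to 128 CPM in S8 to S11 (log2 fold change 2.69, adjusted p = 0.0011). Skp2, a ubiquitin ligase subunit, was higher by 2.61 (adjusted p = 0.000338) and Aurka, a mitotic kinase, by 2.07 (adjusted p = 0.000803). Usp28, a deubiquitinase of Myc, was lower, with a log2 fold change of -1.94 (adjusted p = 0.000129). Cip2a, Skp2, and Aurka are also genes of dividing cells. With the mouse as a fixed block Cip2a, Skp2, and Usp28 passed, 3 of 12 against 19% of all genes in that fit, and Aurka did not (adjusted p = 0.0677). The lowest log2 fold change of Aurka over all alternatives was 1.80.

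Of the 23 Myc-activated targets, 16 were higher, 1 was lower, and 6 did not pass, with a median of 1.01, against 28.6% higher and 29.9% lower of all genes. Shmt2, of mitochondrial one-carbon metabolism, was at 50.7 to 158 CPM in S1 to S7 and at 316 to 529 CPM in S8 to S11 (log2 fold change 1.87, adjusted p = 0.000149). Cad, of pyrimidine synthesis, was higher by 1.67 (adjusted p = 0.0016) and Ccnd2, cyclin D2, by 1.93 (adjusted p = 0.0062). Tert, the telomerase catalytic subunit, was higher by 2.02 (adjusted p = 0.0256), from 0 to 1.52 CPM against 0.928 to 7.77 CPM, and its call was lost without F339 ROV, F318 LOV, or the F319 uterus line, with an adjusted p of up to 0.0653. Ldha, lactate dehydrogenase A, which was named after its value was seen, was the one gene that was lower, at -0.95 (adjusted p = 0.0416), and its product is abundant in muscle fibers. With the mouse as a fixed block 7 of the 23 were higher, against 5.45% of all genes, and none was lower, against 13.5%. Shmt2 and Cad were among the 7, while Tert (adjusted p = 0.0685), Ccnd2 (0.625), and Ldha (0.710) did not pass.

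Of the 9 Myc-repressed genes, 2 were higher, 3 were lower, and 4 did not pass, with a median of -0.43, which is 5 of 9 against 58.5% of all genes. Ndrg2, a growth suppressor that muscle also expresses, was at 1477 to 2510 CPM in S1 to S7 and at 19.3 to 149 CPM in S8 to S11 (log2 fold change -4.68, adjusted p = 8.48e-05). Cdkn1c and Cdkn1a, CDK inhibitors, were lower with log2 fold changes of -3.95 (adjusted p = 0.000181) and -2.52 (adjusted p = 0.0312), and the call of Cdkn1a was lost in 4 of the 11 fits without 1 line, those without F364 LOV, F339 ROV, F318 LOV, or the F333 uterus line, with an adjusted p of up to 0.0771. Cdkn2b, another CDK inhibitor, was higher by 1.96 (adjusted p = 0.0033). Of the 2 targets of the Mlx partners, Txnip, which limits glucose uptake, was lower (log2 fold change -2.09, adjusted p = 0.0021), with 398 to 1103 CPM in S1 to S7 and 107 to 365 CPM in S8 to S11, and Arrdc4 did not pass. With the mouse as a fixed block only Ndrg2 and Cdkn1c of these 11 genes passed, both lower, against 13.5% of all genes lower in that fit, and Cdkn2b (adjusted p = 0.154), Cdkn1a (0.314), and Txnip (0.120) did not. The muscle share of the libraries also differed between the sets compared for these lists, and its part in the counts was not tested.

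**Figure D5:**
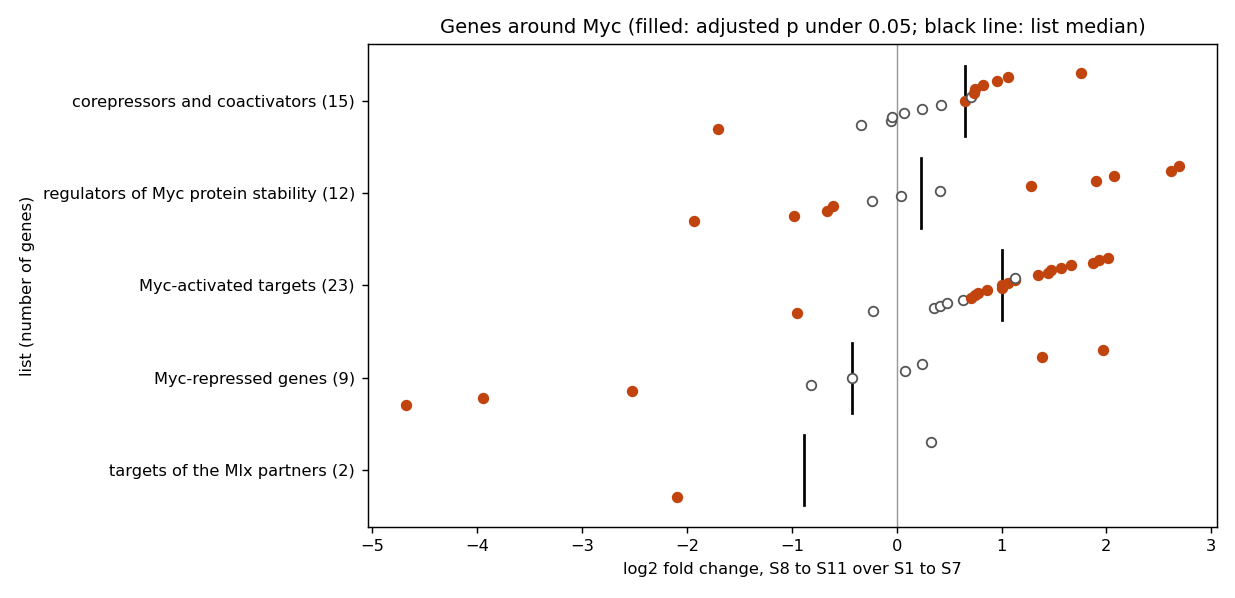
Log2 fold change of S8 to S11 over S1 to S7 (horizontal axis) for each gene of 5 lists, with 1 point per gene, filled where the adjusted p is under 0.05, and the list median as a black line. The Myc-activated targets lie mostly to the right, with a median of 1.01, and the Myc-repressed genes on both sides, with a median of -0.43, where the median of all genes was 0.03.

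Within the sets, 3 of the 12 stability regulators and 1 of the 23 activated targets followed Myc, against 1.84% of all genes with a slope above 0. In the test of the slope, Plk1 (1.17, SE 0.17, adjusted p = 0.0104), Cip2a (1.08, SE 0.14, adjusted p = 0.0094), and Skp2 (0.79, SE 0.13, adjusted p = 0.0195) rose with Myc among the stability regulators, and Cad (0.59, SE 0.13, adjusted p = 0.0418) was the only one of the activated targets. Plk1 is a mitotic kinase. All of these calls were lost without F361, where the adjusted p of the 4 genes ran from 0.370 to 0.496 while the slopes were 0.98 for Plk1, 1.21 for Cip2a, 1.04 for Skp2, and 0.68 for Cad with wider SE, and that of Cad was lost in 8 of the 11 fits without 1 line. With the mouse as a fixed block their adjusted p was 0.971 or more, and the slope of Cad was -0.40. In the other lists no gene passed, and the extremes were Hcfc1 (0.34) and Zbtb17 (-0.08) among the cofactors, Cdkn1a (1.26) and Cdkn1c (-0.61) among the repressed genes, and Arrdc4 (0.31) and Txnip (0.22). Over 19 alternatives Cdkn1c passed in 2, Hcfc1, Zbtb17, and Cdkn1a in 1 each, and Arrdc4 and Txnip in 0. The median slope was 0.30 for the activated targets, 0.14 for the cofactors, 0.11 for the stability regulators, and 0.07 for the repressed genes, against 0.01 for all genes.

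Between uterus and ovary lines no gene of these lists passed in edgeR, while DESeq2 called Mlxipl, Bmyc (7 and 1 counts in the uterus lines), Usp28, Cdkn1c, and Ndrg2 lower in the uterus lines, with adjusted p from 0.0228 (Mlxipl) to 0.0406 (Usp28), where it called 6.51% of 17107 genes lower. The extremes were Hdac1 (log2 fold change 0.84) and Zbtb17 (-1.10) among the cofactors, Cip2a (1.33) and Usp28 (-1.89) among the stability regulators, Tfrc, the transferrin receptor (1.13), and Ldha (-0.56) among the activated targets, Cdkn2b (0.46) and Ndrg2 (-3.73) among the repressed genes, and Arrdc4 (0.84) and Txnip (-1.54). Their adjusted p ran from 0.359 upward, and with the library set as a term Hdac1, Zbtb17, Ldha, Cdkn2b, Ndrg2, and Txnip changed sign.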

How the data were processed

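The deposited table holds raw counts per gene symbol, whole numbers without normalization. The authors aligned paired-end reads of poly(A) RNA to GRCm38 (mm10) with STAR, removed PCR duplicates, and assigned reads to genes with featureCounts. Tool versions and the strand setting are not given in the sources used here, so reads of overlapping or antisense genes may be counted together. No pair of the 11 columns was identical. The members, the lists, and the split into S1 to S7 and S8 to S11 were chosen with earlier results of these data known. For the split, these were the muscle content of the libraries and Myc levels that did not overlap.

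Here, edgeR 4.0.16 (TMM, filterByExpr, quasi-likelihood test, R 4.3.3) compared libraries S8 to S11 with S1 to S7 and uterus with ovary lines, and tested the slope on log2 Myc (prior count 1) with the set as a term. Adjusted p is Benjamini-Hochberg over all genes tested, with a threshold of 0.05. The SE of an edgeR value is its absolute size divided by the square root of the F statistic of the test. The p-values measure only the spread between these lines. The scripts were tested on simulated data. DESeq2 1.42.0, limma 3.58.1 with the mouse as a random block, edgeR with the mouse as a fixed block, other size factors, no filter, totals without muscle genes, subsets of lines, and leaving out each line served as alternatives. Python 3.11.15 with numpy 2.4.6, scipy 1.17.1, and pandas 2.3.3 gave CPM and 95% Wilson intervals.

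Named are the 10 members, Mga, Mlxip, Mlxipl, Bmyc, Trp53, Ovgp1, and Pvt1, and from each list and comparison up to 4 genes with the largest change past the threshold or, where none passed, the highest and the lowest. For likeness to Myc, the 3 highest and 3 lowest genes are named. Mycs and Acta1 were not analysed here, and neither were alleles, coverage along genes, or protein. Positions and exon lengths are from GENCODE M21, and promoter sequences from RefSeq, matched by symbol.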

Additional observations from a re-analysis of the deposited data

Results flagged for a closer look

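Single lines stood far from the rest of their group in 4 of 30 groups tested, where chance gives about 1 in 20 for independent groups of normally spread values. The groups here share lines and the CPM were not transformed, so that rate is only a rough guide. Mycn was at 12.6 CPM in F319 ROV, far above the next line, at 2.94 CPM, both among the 7 ovary lines and among libraries S1 to S7. The library of F319 ROV also had the highest sum of ovarian and oviduct epithelial markers, 237 CPM, and the part of these cells in the Mycn level was not tested. Mycl was at 35.2 CPM in F318 ROV, where the next line of S1 to S7 was at 2.41 CPM, and the other ovary of this mouse had the highest Mycl of all lines, 76.7 CPM. F318 ROV had the highest sum of fibroblast markers in S1 to S7, 11380 CPM, which lies within the range of S8 to S11. Mxi1 was at 48.3 CPM in F364 LOV, below the next line of S1 to S7 at 75.5 CPM, and the other ovary of the same mouse was that next line.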

How the results depend on the processing

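Between the sets, the call of Myc held in 18 alternatives (log2 fold change 1.71 to 2.22), and those of Mxd3 (1.02 to 2.30) and Mxi1 (-0.97 to -0.55) in 17, all but the fit with the mouse as a fixed block, and the count of genes called between the sets was 8526 to 9311 without 1 line. For Myc this is no independent evidence, since the split was chosen with its levels known. Between sets, DESeq2 also called Mycl (adjusted p = 0.0338) and Mxd1 (0.0360). The cause of the changes below was not tested, beyond the fewer lines where lines are left out. Max was at -0.043 in ovary lines only, and Mnt at -0.016 with RLE size factors, -0.015 in DESeq2, -0.17 in ovary lines only, and -0.23 to 0.21 without 1 line.

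Between uterus and ovary, 2 genes were called with no filter, 2 by limma-voom, 1315 by DESeq2, and 0 to 1 without 1 line. With the set as a term or within S8 to S11, respectively, Myc was at -0.028 and -0.084, Mxd1 at 0.060 and 0.0080, Mxd3 at -0.23 and -0.28, Mxi1 at 0.35 and 0.30, Hdac1 at -0.17 and -0.22, Zbtb17 at 0.35 and 0.30, Ldha at 0.12 and 0.067, Cdkn2b at -0.75 and -0.80, Ndrg2 at 0.78 and 0.74, and Txnip at 0.41 and 0.35. Mycn was at 0.0010 with the set as a term, Mycl at 0.53 in limma-voom, and Mnt at -0.054 with RLE size factors and -0.053 in DESeq2. Without 1 line, Mycl ran from -1.42 to 0.033, Mxd4 from -1.09 to 0.18, Mxi1 from -0.69 to 0.040, Mnt from -0.77 to 0.53, Mlx from -0.074 to 0.82, Cdkn2b from -0.29 to 0.97, and Arrdc4 from -0.96 to 1.63.

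The slope on Myc was called for 1452 genes by DESeq2, 71 by limma-voom, 146 within S1 to S7, 7966 with no set term, and 0 to 390 without 1 line: 0 without F361, 39 without F318 ROV, 192 without F364 LOV, and 194 without F319 ROV. Without the set term Mycn was at -2.02, Mlxip at -0.42, Ovgp1 at -0.56, Cdkn1a at -0.41, and Txnip at -0.55, and Mycn was at -0.12 in limma-voom. Without 1 line, Mlx ran from -0.052 to 0.14, Mlxip from -0.039 to 0.18, Ovgp1 from -0.66 to 0.31, and Zbtb17 from -0.12 to 0.0036. The limit on transgene reads was a median of 31.8% of Myc counts with coding lengths, over all lines. With merged exon lengths, which give no upper limit for this construct, the median share was 18.4%. Both medians take in F361, for which the limit gives no estimate.

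Replicate numbers were given in accession order and pair no lines. Lines were joined by mouse, as a random block in limma-voom and, added after the data were seen, as a fixed block in edgeR. With the fixed block 3028 genes were called between the sets, 0 between organs (from mouse F319 alone, with 1500 at an unadjusted p under 0.05), and 0 for the slope (727). Between organs Mycl was then at 1.73, and the slope was 0.38 for Mxd1, 0.37 for Mxi1, -0.094 for Mga, 3.09 for Mlxipl, 3.84 for Bmyc, -0.68 for Pvt1, -3.17 for Ovgp1, 0.058 for Zbtb17, -0.40 for Cad, -2.63 for Cdkn1a, -0.40 for Arrdc4, and -0.25 for Txnip. Of the limits, organ and library set are confounded, Myc covaries with marker content, and at 3 counts Mycn cannot be measured in S8 to S11.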
